A study of Mus musculus with 10 samples.

Results

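Sox7, Sox17 and Sox18 form the SoxF subgroup of the Sox transcription factors. They were read through every array probe whose platform gene symbol is one of these names, 3 of 16593 genes with a named probe. This gave 5 of 25697 probes, of which 2 belong to Sox7 (ILMN_2889482 and ILMN_2653251), 2 to Sox17 (ILMN_2747986 and ILMN_2784446) and 1 to Sox18 (ILMN_2645321). The cells were KH2, a line of mouse embryonic stem cells built for doxycycline-controlled transgenes, here Sox17 carrying a V5 epitope tag. Of 10 Illumina bead arrays, 5 are labelled as controls without induction and 5 as expressing Sox17-V5, for which the design text states 48 h of doxycycline. Both groups share the line, its transgene and embryonic stem cell culture, and the treatment field names doxycycline for all 10 samples, controls included. Neither the origin of replicates from separate cultures nor the clonality of the line is stated in the sources used here, so p values measure the spread between these arrays, which may be technical. Each array is named by its label and the number in its title.

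SoxF proteins bind DNA through an HMG box, which bends the double helix, and activate transcription through their C-terminal part, where they can also contact beta-catenin. Sox17 and Sox7 are known from the primitive endoderm and its parietal and visceral derivatives, and Sox17 also from definitive endoderm. All of the SoxF genes act in blood or lymphatic vessel development, and mutations of Sox18 cause the ragged coat and vessel defects of the mouse mutants of that name. On DNA, Sox17 can pair with Oct4, the product of Pou5f1, as Sox2 does in embryonic stem cells.

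The arrays fall apart in a way that their labels do not give. Background patterns of 1356 chemosensory receptor probes set induced 2 to 5 (here the second set, 4 arrays) apart from the 5 uninduced arrays and induced 1 (the first set, 6 arrays). The second set thus holds 0 arrays labelled uninduced. Markers of embryonic stem cells were bright on every array, with summed intensities of 48300 to 53643 over 8 genes. Single genes varied more, as Tdgf1 read 605 to 1668 and Utf1 2058 to 3515. Between the labels 25% of these 8 genes passed, beside 19.5% of all tested genes. They were Utf1, higher under the induced label, and Sox2, lower under it. Of 8 embryonic fibroblast markers, 4 were tested and all 4 passed between the labels (19.5% of all tested genes did), with Acta2 and Twist1 higher and Thy1 and Prrx1 lower under the induced label. Col1a1, Col1a2, Lum and Postn had medians of at most 6.01, under the background limit of 10.6 that was estimated from values below 0. Of the tested markers, Acta2 was under this limit on 3 of 5 uninduced arrays and Prrx1 on 4 of 5 induced-label arrays. Each lay above it on all 5 arrays of the other label, which alone sufficed for testing. For these genes the filter thus favoured a difference between the labels.

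Sox17, the induced gene, was not higher on the arrays labelled induced. Probe ILMN_2747986 read 32.6, 32.1 and 30.5 on uninduced 1 to 3 and 60.6 and 65.3 on uninduced 4 and 5. It read 67.3 on induced 1, then 13.6, 11.99, 16.6 and 15.0 on induced 2 to 5. The labels therefore overlap, because the array with the highest value and the 4 with the lowest values all carry the induced label. The group means were 44.2 ± 17.2 (SD, n = 5) for the uninduced label and 24.9 ± 23.8 (SD, n = 5) for the induced label. On the log2 scale of intensity plus 16 the difference, induced minus uninduced, was -0.66 ± 0.29 (SE, 95% interval -1.29 to -0.02) and did not pass (limma adjusted p = 0.120). By exact permutation of the 10 arrays p was 0.135. Sox17 thus did not set the labels apart, as induced 1 read close to uninduced 4 and 5 while induced 2 to 5 read lowest. Whether every array carries the right label was not tested, and each direction given here is between the labels as deposited.

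The other Sox17 probe, ILMN_2784446, was dimmer and lay above the background limit on only 4 arrays. It read 6.11, 19.2 and 10.5 on uninduced 1 to 3, 32.2 and 35.4 on uninduced 4 and 5 and 42.9 on induced 1. On induced 2 to 5 it read -2.30, 4.74, 3.98 and 0.964, all under the limit. Both Sox17 probes thus put the same 3 arrays on top and induced 1 first among them. Its label difference of -0.59 ± 0.40 (SE) did not pass in the fit of all probes (limma adjusted p = 0.375, 2.14% of all 25697 probes called), nor by exact permutation (p = 0.190). The positions of the probes are unknown here, and a probe outside the part of Sox17 carried by the transgene does not check induction.

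**Figure D1:**
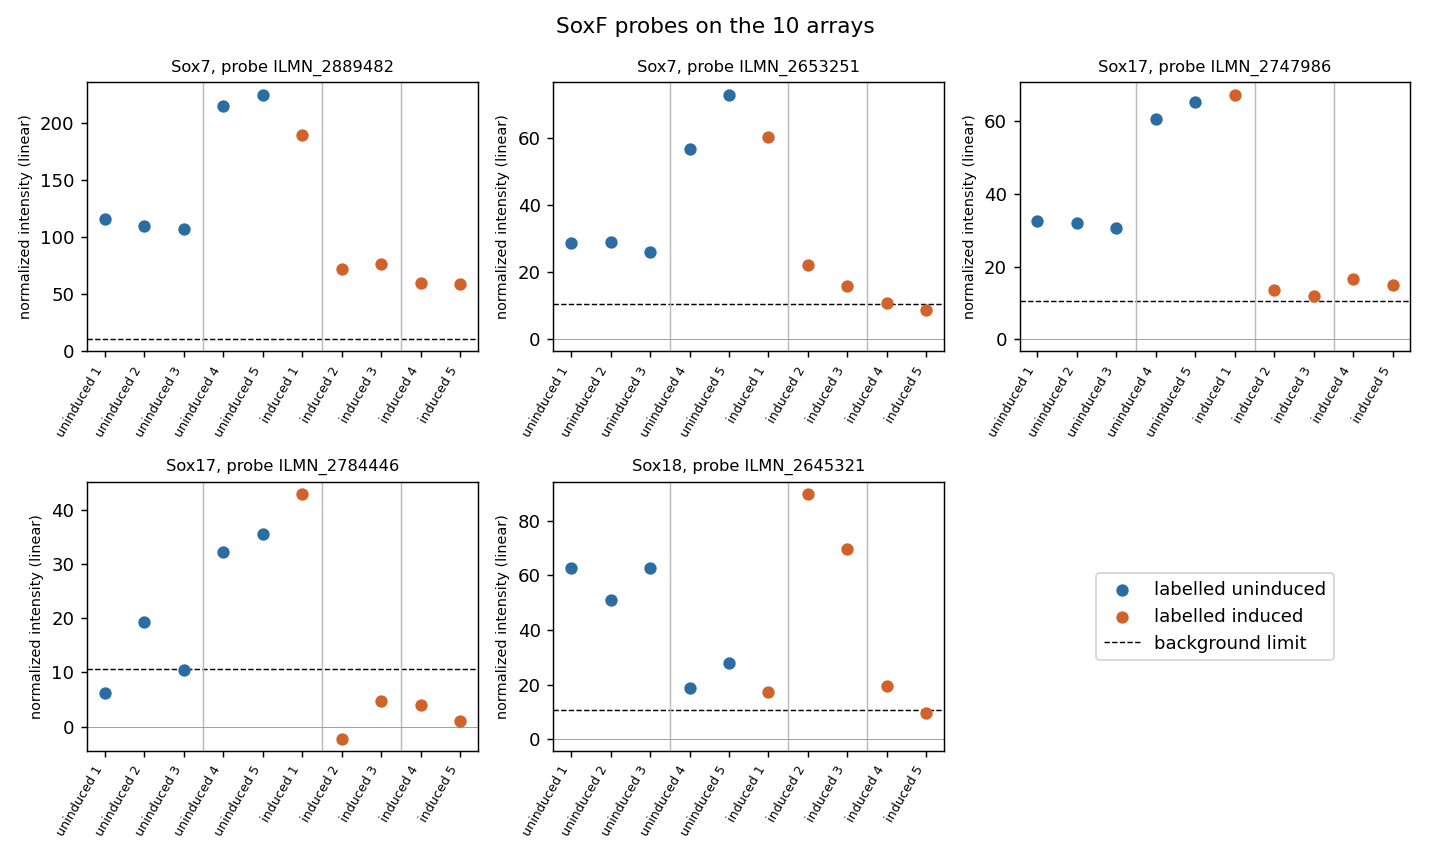
Normalized intensity (linear scale, vertical) of the 5 SoxF probes on each array (horizontal), 1 point per array, coloured by label. The dashed line is the background limit of 10.6, and grey lines separate uninduced 1 to 3, uninduced 4 and 5 with induced 1, induced 2 and 3, and induced 4 and 5. Both Sox7 and both Sox17 probes are highest on uninduced 4, uninduced 5 and induced 1, while Sox18 is low there.

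Sox7, which is expressed with Sox17 in primitive and parietal endoderm, followed nearly the same course. Its brighter probe, ILMN_2889482, read 116, 109.8 and 107 on uninduced 1 to 3 and 215 and 225 on uninduced 4 and 5. It read 190.3 on induced 1 and 72.3, 76.5, 60.2 and 59.2 on induced 2 to 5. As for Sox17, induced 1 sat with uninduced 4 and 5, far above the other arrays of its label. The means were 154.8 ± 60.1 (SD, n = 5) and 91.7 ± 55.6 (SD, n = 5), a difference of -0.71 ± 0.30 (SE, 95% interval -1.36 to -0.07) that did not pass (limma adjusted p = 0.0985, exact permutation p = 0.0952).

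The second Sox7 probe, ILMN_2653251, gave the same order of array groups at lower intensities. It read 28.6, 29.1 and 26.0 on uninduced 1 to 3, 56.6 and 72.8 on uninduced 4 and 5 and 60.2 on induced 1. On induced 2 to 5 it read 22.0, 15.9, 10.7 and 8.80, so that induced 5 fell under the limit and induced 4 lay just above it. The label difference was -0.63 ± 0.31 (SE) and did not pass (limma adjusted p = 0.149, exact permutation p = 0.127).

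Sox18, best known for its part in lymphatic and blood vessels, ran the other way. Probe ILMN_2645321 read 62.7, 50.8 and 62.6 on uninduced 1 to 3, then 18.8 and 28.0 on uninduced 4 and 5 and 17.4 on induced 1. It read 89.8 and 69.6 on induced 2 and 3, and 19.6 and 9.38 on induced 4 and 5, the last of which is under the limit. High and low arrays thus occur under each label, and in each array set. The means of 44.6 ± 20.2 and 41.2 ± 36.1 (SD, n = 5 each) differed by -0.24 ± 0.39 (SE, 95% interval -1.11 to 0.62), which did not pass (limma adjusted p = 0.669, exact permutation p = 0.635).

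Between the labels, 0 of the 4 SoxF probes tested passed limma's adjusted threshold of 0.05, against 19.5% of all 14985 tested probes (9.06% higher and 10.4% lower with the induced label). The labels overlapped for every SoxF probe, whereas 3.68% of tested probes read lower on all induced-label arrays than on all uninduced ones. At an unadjusted p under 0.05 there were 2, Sox7 ILMN_2889482 (p = 0.0332) and Sox17 ILMN_2747986 (p = 0.0453), and by exact permutation 0 of all 5. Induced 1 decided these calls. Without it both Sox7 probes (-0.98 and -0.90) and both Sox17 probes (-0.95 and -0.93) were lower on the arrays labelled induced, with limma adjusted p values of 0.00457, 0.00967, 0.00179 and 0.0364. In the same fits 45.5% of tested probes were called, and 28.8% of all probes in the fit without a filter that holds Sox17 ILMN_2784446. Sox18 stood at -0.11 and did not pass. Without induced 1 the label is the same split as the array set, and the contributions of label and set cannot be told apart. The sizes also depend on the constant added before the logarithm. With 64 added, Sox17 stood at -0.30 and -0.20, Sox7 at -0.51 and -0.29 and Sox18 at -0.09, all uncalled.

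With the array set as a block, the label difference rests on induced 1 against the 5 uninduced arrays. It then turned positive for Sox7 (0.34 ± 0.36 and 0.45 ± 0.38, SE) and Sox17 (0.51 ± 0.29 and 0.76 ± 0.44, SE), and Sox18 stood at -0.78 ± 0.69 (SE). None of the SoxF probes passed (limma adjusted p = 0.912 to 0.977), and neither did any other tested probe (0 called, 724 at an unadjusted p under 0.05).

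Replicate numbers in the descriptions begin again at title 4, so titles 1 to 3 are called run 1 and titles 4 and 5 run 2. In run 2 alone the label and the array set coincide. There both Sox7 probes stood at -1.64 and Sox17 ILMN_2747986 at -1.31 (limma adjusted p = 0.00246 to 0.00268), where 29.4% of tested probes passed. Sox17 ILMN_2784446 stood at -1.44 and did not pass (limma adjusted p = 0.0514), nor did Sox18 at -0.38. In run 1 alone both Sox7 probes and Sox17 ILMN_2747986 stood at -0.09, 0.04 and -0.22 and did not pass. The induced label of run 1 spans both sets, with induced 1 in the first and induced 2 and 3 in the second. Label and set can therefore not be told apart in a comparison of the runs. The run 2 effect minus the run 1 effect was -1.55 ± 0.43 and -1.69 ± 0.42 for Sox7, -1.09 ± 0.54 for Sox17 ILMN_2747986 and -0.23 ± 0.57 for Sox18 (SE). For this difference between runs limma called 0% of tested probes and 0 SoxF probes. The Sox7 probes had unadjusted p values of 0.00520 and 0.00296 (adjusted p = 0.708), and 991 of all tested probes had one under 0.05.

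**Figure D2:**
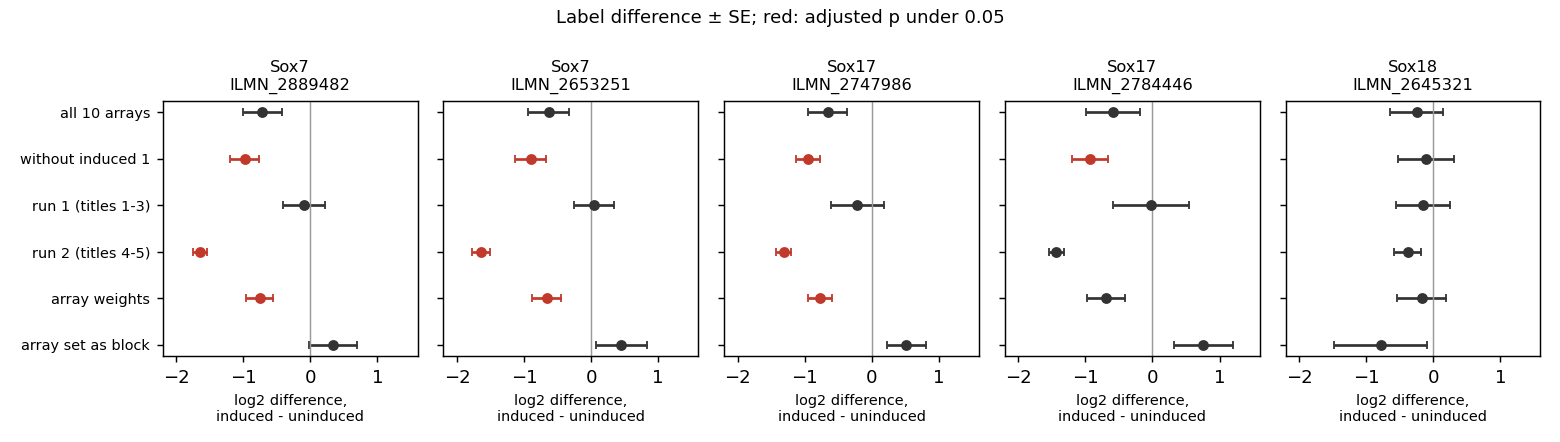
Label difference (induced minus uninduced, log2 of intensity plus 16, horizontal) of each SoxF probe under 6 settings (vertical), as the estimate with its standard error, in red where the adjusted p is under 0.05. Sox7 and Sox17 lie below 0 with all 10 arrays and further below without induced 1, and above 0 with the array set as a block. Sox18 passes under none of the 6.

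Read by title, the arrays form 4 groups, namely uninduced 1 to 3, uninduced 4 and 5 with induced 1, induced 2 and 3, and induced 4 and 5. These groups were proposed from earlier results of the same arrays and join different labels, so values are described and not tested. For Sox17 ILMN_2747986 the order from high to low was uninduced 4 and 5 with induced 1 (60.6 to 67.3), uninduced 1 to 3 (30.5 to 32.6), induced 4 and 5 (15.0 to 16.6) and induced 2 and 3 (11.99 to 13.6). The 4 ranges do not overlap, although the last 2 lie closer together than the background SD of 6.45. This full order, read from the probe itself, held for 0.934% of all tested probes, a share that does not show rarity.

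Both Sox7 probes had the order uninduced 4 and 5 with induced 1, then uninduced 1 to 3, induced 2 and 3, and induced 4 and 5. This order, likewise read from the probes themselves, held for 0.36% of tested probes. Sox7 and Sox17 therefore share the first 2 places and differ in the last 2, where Sox17 and Sox7 ILMN_2653251 are near background. For that Sox7 probe induced 4 and 5 read 10.7 and 8.80. Its ranges below the first place lie closer to their neighbours than the background SD of 6.45. For Sox18 the order was induced 2 and 3 (69.6 to 89.8), uninduced 1 to 3 (50.8 to 62.7), then the other groups, whose ranges of 17.4 to 28.0 and 9.38 to 19.6 overlap.

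Within the first set the gap was similar for Sox7 and Sox17. The lowest of uninduced 4, uninduced 5 and induced 1 was 1.636 times the highest of uninduced 1 to 3 for Sox7 ILMN_2889482 and 1.95 times for ILMN_2653251. The same ratio was 1.86 for Sox17 ILMN_2747986 and 1.68 for ILMN_2784446. Such a gap in this direction was present in 15.9% of tested probes. For Sox18 the gap ran in the opposite direction, the lowest of uninduced 1 to 3 being 1.82 times the highest of the other 3, as it did without overlap in 17.5% of tested probes.

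Within the second set, where each group has only 2 arrays, the order of the groups differed between members. The lowest of induced 2 and 3 exceeded the highest of induced 4 and 5 by 1.20 times for Sox7 ILMN_2889482, by 1.49 times for ILMN_2653251 and by 3.55 times for Sox18 (24.6% of tested probes without overlap in that direction). Sox17 ILMN_2747986 ran the other way by 1.11 times (23.9% of tested probes), and ILMN_2784446 overlapped. Sox18 was therefore lower in uninduced 4, uninduced 5 and induced 1 than in uninduced 1 to 3, and lower in induced 4 and 5 than in induced 2 and 3, a pair of gaps that 9.14% of tested probes share.

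Between the sets, the lowest array of the first set was 1.83 times the highest of the second for Sox17 ILMN_2747986, and 1.40 and 1.18 times for the Sox7 probes. Non-overlap in that direction was found in 17.3% of tested probes. Sox18 ranged from 17.4 to 62.7 in the first set and from 9.38 to 89.8 in the second, so its ranges overlap.

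Likeness of patterns was measured as the root mean square difference between log2 values over the 10 arrays, each probe centred on its own mean. A smaller value is more alike, and a probe's distance to a flat line is 0.587 for Sox17 ILMN_2747986, 0.609 for Sox7 ILMN_2889482 and 0.676 for Sox18. Sox7 stood 0.153 from Sox17. Seen from Sox7, Sox17 was the nearest of 10086 other genes, and seen from Sox17, 7 genes lay closer than Sox7. The second Sox7 probe lay 0.117 from the first, nearer than any other gene. The second Sox17 probe lay 0.210 from the first, and 21 genes lay closer. It lay 0.238 from Sox7 ILMN_2889482, and 14 genes lay closer, so the rank of Sox17 depends on the probe. Sox18 lay 1.04 from Sox17, farther than 9895 of the 10086 genes, and 0.999 from Sox7. All points share the same 10 arrays and their split into sets, and these distances are descriptions.

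Beside Sox17 the 5 nearest genes were Clec2e, which encodes a C-type lectin (0.134), Tmem82 (0.138), Flrt3, an adhesion protein of FGF signalling (0.144), Dab2, an endocytic adaptor of extraembryonic endoderm (0.145), and Slc44a1, a choline transporter (0.147). Dab2 read 187.9 to 232 on uninduced 1 to 3, 267 to 326 on uninduced 4, uninduced 5 and induced 1, and 121 to 135 on induced 2 to 5. Beside Sox7 they were Sox17, then Dram1, a lysosomal membrane protein (0.168), Pcdhga8, a protocadherin (0.183), Slc44a1 (0.187) and Flrt3 (0.205). Pcdhga8 was dim, at most 25.8 on any array and under the background limit on induced 2 to 5. Dram1 was under the limit on induced 4 and 5.

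Beside Sox18 the 5 nearest genes were the metalloreductase genes Steap2 (0.223) and Steap1 (0.263), the lipid transporter gene Mfsd2a (0.248), Pou3f1, a POU-domain transcription factor (0.260), and Plekha2 (0.269). Mfsd2a read 124 to 159 on uninduced 1 to 3 and 43.5 to 56.9 on uninduced 4, uninduced 5 and induced 1. On induced 2 and 3 it read 217 and 226, and on induced 4 and 5 57.1 and 61.1, the same alternation as Sox18.

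**Figure D3:**
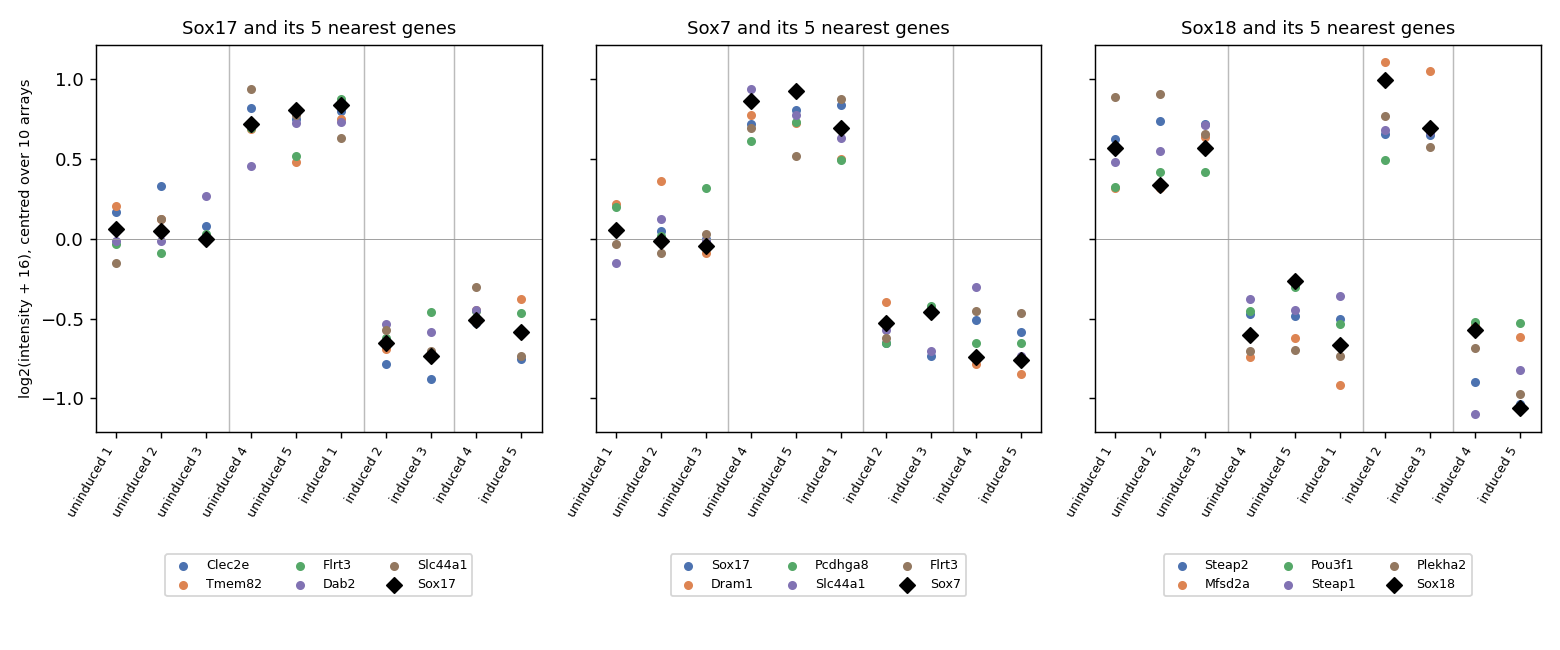
Log2 of intensity plus 16, centred over the 10 arrays (vertical), for the brightest probe of Sox17, Sox7 and Sox18 (black diamonds) and the 5 genes nearest to each (coloured points), by array (horizontal). Sox17 and Sox7 are above their means on uninduced 4, uninduced 5 and induced 1 and below on induced 2 to 5, and Sox18 is below its mean on uninduced 4, uninduced 5 and induced 1 and on induced 4 and 5.

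With values centred within each array set instead, which takes the difference between sets away, other genes came nearest. For Sox17 they were the corepressor gene Bcor (0.0747), the receptor phosphatase gene Ptprk (0.0754), Lamc1, a laminin chain of basement membranes (0.0783), the acyltransferase gene Agpat4 (0.0799) and Aplp2 (0.0864). Lamc1 read 3620 to 3902 on uninduced 1 to 3 and 5670 to 6521 on uninduced 4, uninduced 5 and induced 1. For Sox7 they were Gpaa1 (0.135), the matrix gene Tgfbi (0.145), the protease inhibitor gene Spint2 (0.146), the basement membrane gene Nid1 (0.147) and the amino acid transporter gene Slc7a7 (0.149). For Sox18 they were Tmem59l (0.151), Mfsd2a (0.157), Steap2 (0.174), the cell cycle inhibitor gene Cdkn1c (0.181) and Hapln4 (0.184). Tmem59l was under the background limit on induced 4 and 5. After this centring 116 genes lay closer to Sox17 than Sox7 did, and 5 lay closer to Sox7 than Sox17 did. Compared with the dimmer Sox17 probe, ILMN_2784446, 296 genes lay closer to Sox7 and 619 lay closer to Sox17 ILMN_2747986.

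The summed markers of extraembryonic endoderm were highest on the arrays where Sox7 and Sox17 were highest, while single markers differed in order. Of 8 markers, 7 are on the array and 5 were tested, and their summed intensity was 501 to 576 on uninduced 1 to 3 and 1074 to 1200 on uninduced 4, uninduced 5 and induced 1. It was 356 to 357 on induced 2 and 3 and 459 to 470 on induced 4 and 5. Gata6, a zinc finger regulator of primitive endoderm, read 67.3 to 97.8, 406 to 454, 66.4 to 69.1 and 171 to 172 on these groups in turn, so it was higher on induced 4 and 5 than on induced 2 and 3, where Sox7 was lower. Pdgfra, a growth factor receptor gene of primitive endoderm, read 36.5 to 47.3, 207 to 232, 9.88 to 15.5 and 38.1 to 45.8. Amn was highest on uninduced 1 to 3 (179 to 212, against 142 to 179.6 on uninduced 4, uninduced 5 and induced 1). Gata4 was dim throughout and highest on induced 4 and 5 (22.7 to 27.2, against 9.07 to 22.0 elsewhere). Foxa2 and Lrp2 were mostly under the background limit, above it on 1 and 2 arrays. In bulk RNA more cells of a type and more RNA per cell cannot be told apart, and the part of these cells in the SoxF values was not tested.

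The summed endothelial markers had another order than any SoxF gene. Of 8 markers 7 are on the array, and their sum was 286 to 350.3 on uninduced 1 to 3, 299.7 to 354 on uninduced 4, uninduced 5 and induced 1, 603 to 625 on induced 2 and 3, and 473 to 529 on induced 4 and 5. The higher sums came from Esam, a junction protein (98.4 to 178 in the first set and 356 to 504 in the second). Tek, the angiopoietin receptor gene, was highest where Sox7 and Sox17 were, at 80.1 to 94.9 on uninduced 1 to 3, 116 to 128 on uninduced 4, uninduced 5 and induced 1, and 59.3 to 73.0 on induced 2 to 5. Cdh5, the VE-cadherin gene, and Emcn were under the limit on all 10 arrays, and Tie1 was above it on 2. Esam, Tek and Flt1 (23.7 to 56.9) were above it on all 10 arrays and Kdr on 6. The part of endothelial cells in the Sox18 values was not tested.

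**Figure D4:**
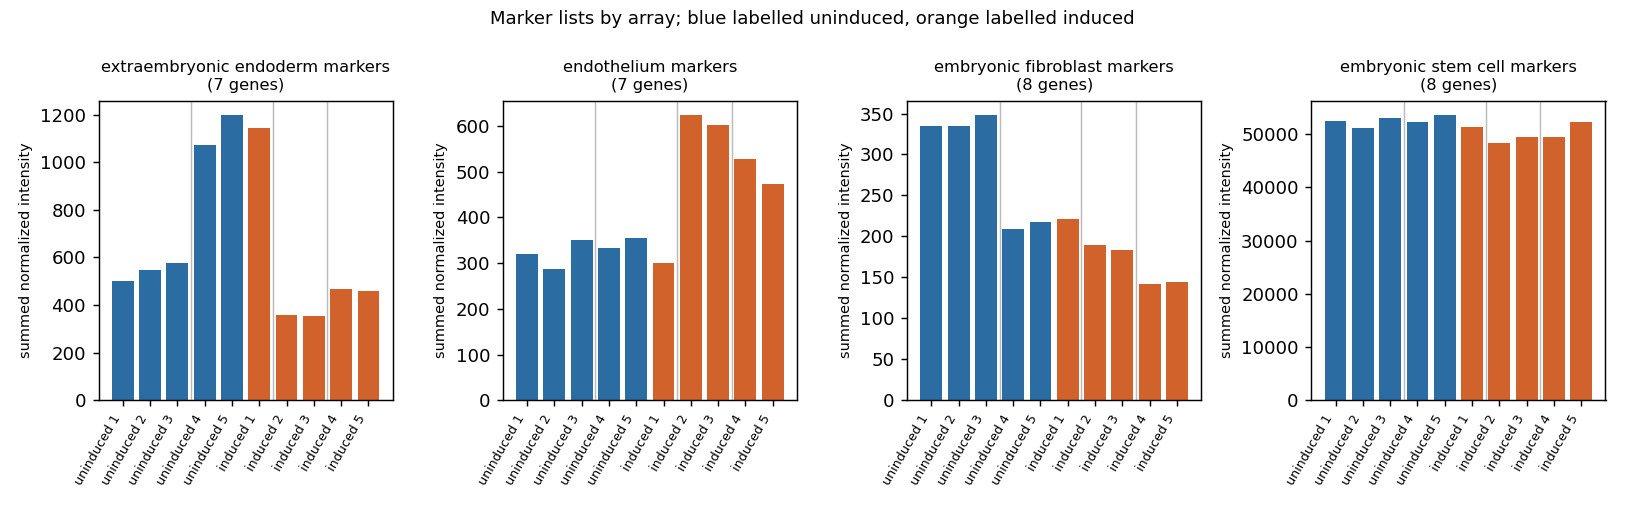
Summed normalized intensity (linear, vertical, values under 0 counted as 0) of 4 marker lists on each array (horizontal), blue for the uninduced and orange for the induced label. Extraembryonic endoderm markers are highest on uninduced 4, uninduced 5 and induced 1 (1074 to 1200) and endothelium markers on induced 2 to 5 (473 to 625). The sums of the stem cell markers range from 48300 to 53643.

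Genes that act around SoxF factors were counted by list between the labels, where 19.5% of 10087 tested genes passed and the median log2 difference was -0.0093. Among 10 tested endoderm regulators and receptors, Hnf4a, a nuclear receptor, rose (0.48 ± 0.09, SE) while Amn, which partners cubilin in endocytosis, fell (-0.56 ± 0.14), and the list median was -0.12. Of 13 basement membrane and parietal endoderm genes 0 rose and 3 fell, with a median of -0.17. They were Serpinh1, a collagen chaperone gene (-0.62 ± 0.20), Snai1 (-0.42 ± 0.09) and the activin antagonist gene Fst, which read 24.0 ± 6.28 and 5.91 ± 4.86 (SD, n = 5 each) with 4 of 5 induced-label arrays under the limit.

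Of 12 tested endothelial genes downstream of SoxF factors, 0 rose and 1 fell, with a median of -0.08. This was the VEGF receptor gene Kdr, at 19.5 ± 4.92 and 9.05 ± 4.24 (SD, n = 5 each), again with 4 of 5 induced-label arrays under the limit. Of 6 SoxF cofactors 0 passed (median 0.03), and the most intense were Pou5f1 (0.10 ± 0.12, SE) and Ctnnb1, the beta-catenin gene (0.05 ± 0.09). Of 9 Wnt and beta-catenin genes, the feedback inhibitor genes Notum (0.51 ± 0.12) and Axin2 (-0.68 ± 0.22) rose and fell respectively (median 0.01). Of 7 other Sox genes tested, Sox2 fell (-0.29 ± 0.08) and 0 rose (median 0.14). These list calls share the overlap of label and set with the SoxF probes. Of the 9 genes called in these lists, 0 remained called with the array set as a block, and 0 without uninduced 1, 2 or 3 or without induced 2, 4 or 5. Without uninduced 4 or 5 there were 7, without induced 3 there were 3, and without induced 1 all 9. By title group, the summed other Sox genes were also highest on uninduced 4, uninduced 5 and induced 1 (6938 to 7058). They read 3144 to 3424 on uninduced 1 to 3. On induced 2 and 3 they read 2717 to 2878, and on induced 4 and 5 5031 to 5182. Such a sum follows its bright members, and only 6 to 9 of the 13 genes were above the limit on each array. Sox2, in the list, was not highest on uninduced 4, uninduced 5 and induced 1 (1335 to 1643, against 1524 to 1688 on uninduced 1 to 3). The summed endoderm regulators, basement membrane genes and endothelial genes downstream of SoxF factors were highest on uninduced 4, uninduced 5 and induced 1. The summed cofactors were highest on induced 4 and 5 (16528 to 16559, against 12804 to 15019 elsewhere). Pou5f1 made up the largest part of that sum, at 9094 to 9471 there and 6476 to 8181 elsewhere. The summed Wnt genes were also highest there, but only slightly (11370 to 11526, against 10194 to 11201 elsewhere).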

How the data were processed

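Biotin-labelled RNA from 10 samples was hybridised to Illumina bead arrays, per the labels' protocols. The deposited normalized intensity values are on a linear scale. Judged from these values, the authors subtracted background (25.5% lie below 0) and scaled the arrays to each other (upper quartile of 250.01 on each, medians 21.7 to 22.0). The software is not stated. A deposited table of unnormalized signals was not used, because its 20 value columns carry sample numbers found in no label. Precision is limited by the number of arrays.

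Negative values were raised to 0, and log2 was taken after adding 16. The background limit (10.6) came from values below 0 mirrored about 0 (SD 6.45), and probes above it on at least 5 arrays (14985) were tested. Of all probes, 23978 carry 1 gene symbol, 0 several and 1719 none, with symbols updated through the Entrez identifier. Genes were represented by their brightest probe. Labels were compared with limma 3.58.1 in R 4.3.3 (lmFit and eBayes, two-sided, Benjamini-Hochberg over all tested probes), which was also tested on simulated data, and each SoxF probe by exact two-sided permutation of the 10 arrays (252 arrangements, smallest p 0.00794). The dim Sox17 probe was taken from a fit of all probes. Array sets came from the largest gap along the first principal component of the receptor probes. Alternatives were another added constant, filter, floor or normalization, array weights, blocks, single runs and leaving out each array. Members, lists and tests were chosen with earlier results of these data known. Named were all SoxF probes, the 5 genes nearest to each member by either centring, and up to 4 called genes of each list, or the 2 most intense. Sequences and genome positions of the probes are not used here. Figures used matplotlib 3.10.9 and Python 3.11.15.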

Additional observations from a re-analysis of the deposited data

Results flagged for a closer look

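In 4 of the 10 sets formed by a SoxF probe and a label, 1 array stood far from the other 4, and each time it was induced 1. For normally distributed values chance alone marks about 1 in 20 such sets, but linear intensities need not be so distributed. The 4 sets share their arrays, and the title groups had already set induced 1 apart. The flags are therefore descriptions and not a test. For Sox7 ILMN_2889482 the array read 190.3 and the next highest 76.5, a gap of 0.868 of the whole range. For Sox7 ILMN_2653251 it read 60.2 beside 22.0, a gap of 0.744. For Sox17 ILMN_2747986 it read 67.3 beside 16.6, a gap of 0.916, and for Sox17 ILMN_2784446 42.9 beside 4.74, a gap of 0.844. Without induced 1 the label differences of these 4 probes were -0.98, -0.90, -0.95 and -0.93, and all 4 passed limma's adjusted threshold, in fits that called 45.5% of tested probes, or 28.8% of all probes for the dim Sox17 ILMN_2784446.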

How the results depend on the processing

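The label difference of Sox18 kept its sign and stayed uncalled under all 21 alternatives. For the other SoxF probes a different added constant, filter, floor or normalization changed neither sign nor call, but the added constant and the floor changed sizes. With 4 and 64 added, Sox17 ILMN_2784446 stood at -1.24 and -0.20 (-0.21 with values raised to the background limit), Sox7 ILMN_2653251 at -0.92 and -0.29, Sox17 ILMN_2747986 at -0.94 and -0.30, and Sox18 at -0.39 and -0.09. With the array set as a block, the differences turned to 0.34 and 0.45 for Sox7 (ILMN_2889482 and ILMN_2653251, here and below) and to 0.51 and 0.76 for Sox17 (ILMN_2747986 and ILMN_2784446). Sox7 ILMN_2653251 also turned to 0.0436 in run 1 alone. Calls were gained in run 2 alone (Sox7 -1.64 and -1.64, Sox17 ILMN_2747986 -1.31), where 29.4% of tested probes passed. They were also gained with array weights (Sox7 -0.75 and -0.66, Sox17 ILMN_2747986 -0.77), where 7313 of 14985 tested probes passed. These weights gave induced 1 the lowest weight of any array, 0.169. Over the omission of single arrays, the differences ranged from -0.98 to -0.57 and from -0.90 to -0.46 for Sox7, from -0.95 to -0.54 and from -0.93 to -0.45 for Sox17, and from -0.52 to -0.0072 for Sox18. Only the omission of induced 1 changed a SoxF call. The number of called probes, 2919, was 549 without a filter, 0 with the array set as a block, 0 in run 1 alone (3 arrays a label, 2987 at an unadjusted p under 0.05), 4400 in run 2 alone and 7313 with array weights, and ranged from 14 to 6821 with each array left out. Omitting uninduced 1, 2, 3 or 4 left 21, 34, 52 or 1864 calls, and omitting induced 1, 2, 3, 4 or 5 left 6821, 17, 639, 14 or 16. The causes were not tested. A replicate block by title number left the SoxF differences as they were (-0.71, -0.63, -0.66, -0.59 and -0.24), with 0 SoxF calls and 3344 called probes in all. Title numbers were not taken to pair the samples, since deviations of the same number correlated at -0.0605 for number 1 and 0.293 to 0.314 for 2 to 5, and 1 of 5 uninduced arrays correlated best with its own number. The filter on all 10 arrays left no value for Sox7 ILMN_2653251, Sox17 ILMN_2784446 and Sox18. Exact permutation kept every SoxF probe uncalled with 4 or 64 added. Signal close to background limits what can be said of Sox17 on induced 2 to 5 and of Sox18 on induced 5. The same holds for Sox7 ILMN_2653251 on induced 4 and 5 (10.7 and 8.80) and Sox17 ILMN_2784446 on uninduced 1 and 3 (6.11 and 10.5).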
